A study of Homo sapiens with 6 samples.

Results

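The proteasome subunit genes were read in U373 cells, a human glioblastoma line, by 43 probe sets whose only platform symbol starts with PSMA, PSMB, PSMC, PSMD or PSME and a digit. They stand for 37 of the 8226 genes with a single symbol on the Affymetrix U95 Av2 array, and 10943 of its 12558 non-control probe sets carry one. The symbol rule also takes in PSMC3IP, a meiotic recombination factor named for its binding to PSMC3 and no part of the proteasome, which is given on its own, so that 42 probe sets of 36 genes remain. Probe sets of the subunit genes PSMA6 and PSME2 carry several symbols, so the rule leaves them out. RNA of 6 conditions was read on 1 array each. These were syk-transfected cells treated with ethanol and 10 µM PonA at day 1 and at day 2, syk-transfected cells in ethanol alone at day 1, syk-transfected untreated cells at day 1 and at day 2, and untransfected untreated cells at day 1. PonA, ponasterone A, is a steroid that switches on a gene placed behind an ecdysone-inducible promoter, the system used here, and ethanol is its usual solvent. SYK is a tyrosine kinase of blood cell signalling. There was 1 array per condition, PonA was not given to untransfected cells, no ethanol array stood at day 2, and whether the transfected cells were 1 clone is not given in the sources used here. Stocks of U373 have been reported to be another glioblastoma line.

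The proteasome is the barrel-shaped protease that breaks down proteins tagged with ubiquitin. Its core holds outer rings of PSMA subunits, which gate the entry, and inner rings of PSMB subunits, among which PSMB5, PSMB6 and PSMB7 carry the chymotrypsin-like, caspase-like and trypsin-like active sites. In cells exposed to interferon gamma, and constantly in many immune cells, PSMB8, PSMB9 and PSMB10 take the places of PSMB5, PSMB6 and PSMB7 and form the immunoproteasome, known for cutting peptides suited to presentation on MHC class I. The regulatory cap that binds the barrel has a ring of PSMC ATPases, which unfold substrates, and PSMD subunits, which bind and remove ubiquitin. PSME proteins form other caps.

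The promoters of 5 subunit genes are shown because 4 of them, PSMB8, PSMC3, PSMB10 and PSMB9, had the lowest PonA effects of all subunit genes and PSMB5, the constitutive counterpart of PSMB8, had an effect near 0. Each line holds the 250 bases before the annotated start, 5′ to 3′ on the strand of the gene, from RefSeq on GRCh38.p14. Capitals mark matches on either strand to the interferon gamma site TTCNNNGAA, the interferon-stimulated response element, the antioxidant response element TGACNNNGC, the box CCAAT or the NF-kB site.
PSMB8, chr6:32844680-32844929, minus strand: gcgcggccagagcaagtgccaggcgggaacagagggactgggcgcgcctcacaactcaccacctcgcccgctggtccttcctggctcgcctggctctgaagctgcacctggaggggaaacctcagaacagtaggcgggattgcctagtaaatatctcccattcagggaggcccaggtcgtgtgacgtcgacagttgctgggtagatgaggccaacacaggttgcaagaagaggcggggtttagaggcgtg
PSMB9, chr6:32853942-32854191, plus strand: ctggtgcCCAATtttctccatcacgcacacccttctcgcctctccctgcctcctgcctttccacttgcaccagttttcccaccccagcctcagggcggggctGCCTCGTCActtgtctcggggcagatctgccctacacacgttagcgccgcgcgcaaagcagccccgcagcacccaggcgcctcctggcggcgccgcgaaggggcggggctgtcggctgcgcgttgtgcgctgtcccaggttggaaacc
PSMB10, chr16:67936851-67937100, minus strand: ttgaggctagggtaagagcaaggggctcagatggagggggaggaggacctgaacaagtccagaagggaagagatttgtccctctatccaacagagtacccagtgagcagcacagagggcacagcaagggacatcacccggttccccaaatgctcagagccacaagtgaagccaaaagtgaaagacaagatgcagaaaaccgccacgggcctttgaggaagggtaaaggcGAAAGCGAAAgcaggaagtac
PSMC3, chr11:47426440-47426689, minus strand: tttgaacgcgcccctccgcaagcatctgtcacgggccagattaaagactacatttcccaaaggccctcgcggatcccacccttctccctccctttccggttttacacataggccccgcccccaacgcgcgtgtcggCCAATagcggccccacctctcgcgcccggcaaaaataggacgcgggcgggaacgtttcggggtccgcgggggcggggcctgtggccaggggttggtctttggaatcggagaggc
PSMB5, chr14:23035221-23035470, minus strand: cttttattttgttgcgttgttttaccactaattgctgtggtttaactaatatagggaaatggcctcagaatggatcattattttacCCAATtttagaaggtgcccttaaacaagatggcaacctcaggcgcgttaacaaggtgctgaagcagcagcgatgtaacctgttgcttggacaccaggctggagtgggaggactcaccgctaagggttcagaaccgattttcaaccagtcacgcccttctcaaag
PSMB10 held the interferon-stimulated element, on the minus strand, from 21 to 12 bases before its start. PSMB9 held the antioxidant element, on the minus strand, from 148 to 140 bases before its start, and a CCAAT box farther out. PSMC3 and PSMB5 held a CCAAT box each, and none of these letters stood in the PSMB8 window. Windows were found for 31 of the 36 genes, and none was used for PSMA7. The interferon gamma site was in 4 of the 31 windows, those of PSMA2, PSMC4, PSMD3 and PSME3, against 6.11% of the 15842 windows of protein-coding genes in the table used. The interferon-stimulated element was in 3, those of PSMA4, PSMB4 and PSMB10, against 2.71% of all. The antioxidant element was in 8 against 11.6% of all, the CCAAT box in 14 against 34.5%, the GC box GGGCGG in 18 against 55.8% and the NF-kB site in 0 against 1.36%. These matches are descriptions of the letters only. Looser forms of the letters, and starts other than the outermost of each gene, were not searched.

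The deposited signals are MAS5 values on a linear scale, and their trimmed means were alike on all arrays, at 150.07 to 150.08 units. The 40th percentile of each array, between 22.7 and 26.5 units, is called the floor, and lower signals were raised to it. All 42 subunit probe sets were above the floor on all 6 arrays, so none of their values was raised and none was lost to the filter. The 3′ to 5′ ratio of beta-actin, a sign of RNA integrity, was 1.20 and 1.21 on the day 2 arrays and 0.960 to 0.987 at day 1, that of GAPDH was 0.939 to 1.04, and spike-in controls had a geometric mean of 271 to 501 units on transfected arrays and 157 on the untransfected array. Among astroglial and mesenchymal markers VIM gave 4919 to 6458 units on all arrays. GFAP gave 103 to 229 on the transfected arrays and 1533 on the untransfected array, while AQP4 and SLC1A2 stayed under the floor on all 6. SLC1A3, a glutamate transporter gene, was the only one of 6 such markers tested that rose with PonA, and 0 of them fell. It gave 193 and 225 units with PonA on days 1 and 2, against 22.8 with ethanol, which is under the floor, and 38.8 and 24.0 untreated, of which the last is next to the floor. Its effect was 2.88 ± 0.26 on the log2 scale (SE, limma, adjusted p = 0.0041). It was 2.93 with the floor at the 20th percentile (adjusted p = 0.0408). On log2 of signal plus 16 with no floor it was 2.36 (adjusted p = 0.0022). Of 10 immune and blood cell markers 6 were under the floor on all arrays, among them PTPRC at no more than 9.90. CD68 at 145 to 226 units, CD3E at 58.7 to 83.2 and HBB at 27.8 to 44.0 were above it on all 6, and PECAM1 on 4. Of these 4, the ones tested, 0 passed the threshold in the PonA fit. The 3 SYK probe sets disagreed. The first gave 39.1 and 72.5 units with PonA on days 1 and 2, against 14.4 with ethanol and 22.2 and 20.01 untreated, all under their floors. The second gave 56.3 and 35.2 with PonA, against 64.1 with ethanol and 73.1 and 22.0 untreated. The third was under the floor on all 6 arrays, so 1 of 3 was higher with PonA than all transfected arrays without it, and which part of SYK the construct holds is not given in the sources used here.

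Most subunit probe sets held a narrow range of signal over the 6 arrays. The highest array was 1.47-fold the lowest in the median probe set, against 1.70-fold over all 6449 probe sets above the floor on all arrays. The 6449 were not matched for signal to the 42, whose mean signal was 513 units in the median. Of the 42, only PSMA7 and the 3 immunoproteasome genes spanned more than 2-fold, and the other 38 spanned 1.15-fold to 2.00-fold. The narrowest was that of PSME3, which encodes the nuclear activator PA28 gamma. The widest was that of PSMA7, at 6.62-fold. The geometric mean of the 38 was 518, 544 and 591 units at day 1 with PonA, with ethanol and untreated, 579 and 632 at day 2 with PonA and untreated, and 629 in untransfected cells.

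**Figure D1:**
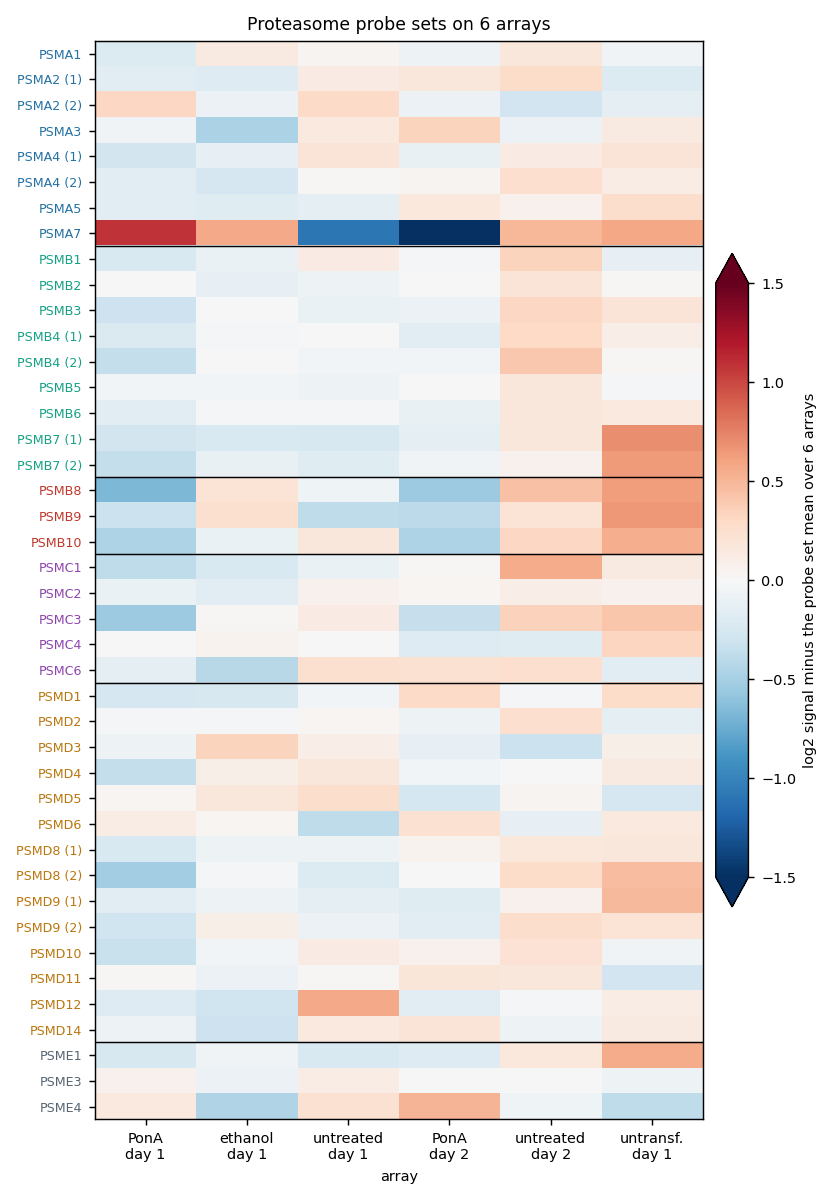
Colour gives the log2 signal of each of the 42 subunit probe sets (rows, by class, names coloured by class, black lines between classes) on each of the 6 arrays (columns), minus the mean of that probe set over the arrays. A number in brackets tells apart the probe sets of a gene; colours end at 1.5 either way. The row of PSMA7 changes from array to array, and the 3 immunoproteasome rows are low with PonA, PSMB9 also on the untreated array of day 1, and high in untransfected cells, while the signal of most others ranged by less than 2-fold.

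PonA treatment went with no subunit probe set past the threshold. The lowest effects were those of PSMB8, PSMC3, PSMB10 and PSMB9, the last next to that of PSMB4, a constitutive subunit. PSMB8, which encodes the immunoproteasome form of the chymotrypsin-like subunit, gave 228 units with PonA, 418 with ethanol and 347 untreated at day 1, and 247 with PonA against 491 untreated at day 2. Both PonA arrays were below all 3 transfected arrays without PonA, as in 16.2% of the 7934 probe sets tested. Its effect over both days was -0.85 ± 0.18 on the log2 scale (SE), or 1.80-fold lower, and missed the threshold (limma, adjusted p = 0.0542, unadjusted p = 0.00291). The spread behind this p comes from 2 residual degrees of freedom, which hold the ethanol difference of day 1 and the difference of the PonA effect between the days, moderated by limma with a prior of 4.48 from all probe sets, and not from repeated cultures. It lies next to the threshold. Leaving out the untreated array of day 1 gave an adjusted p of 0.0310, and leaving out the ethanol array gave 0.0475. Without the PonA array of day 1 the fit reads PonA from day 2 alone, and the effect was -0.99. Without either array of day 2 it reads PonA from day 1 alone, and the effect was -0.74 both times. These fits rest in effect on 1 PonA array, and PSMB8 missed the threshold in each.

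PSMB10, the immunoproteasome form of the trypsin-like subunit, gave 221 units with PonA, 284 with ethanol and 344 untreated at day 1, and 221 with PonA against 377 untreated at day 2. Its PonA arrays were also below the 3 others. The effect was -0.62 ± 0.18 on the log2 scale (SE, adjusted p = 0.125). PSMB9, the immunoproteasome form of the caspase-like subunit, gave 203 with PonA, 298 with ethanol and 194 untreated at day 1, and 193 with PonA against 292 untreated at day 2. Here the groups overlapped, since the untreated array of day 1 was as low as the PonA arrays. The effect was -0.39 ± 0.24 on the log2 scale (SE, limma, adjusted p = 0.438). The constitutive gene PSMB4 was close to it, at -0.32 ± 0.17 and -0.39 ± 0.16 by its pair of probe sets (SE, limma, adjusted p = 0.380 and 0.268). By each of them, both PonA arrays were below the 3 others. The geometric mean of the immunoproteasome genes was 217 units with PonA, 328 with ethanol and 285 untreated at day 1. At day 2 it was 219 with PonA against 378 untreated. In a bulk sample, fewer cells of a type and less RNA per cell cannot be told apart.

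The constitutive subunits that the immunoproteasome replaces had effects nearer to 0. PSMB5 gave 1179 units with PonA, 1179 with ethanol and 1146 untreated at day 1, and 1202 with PonA against 1364 untreated at day 2. Its effect was -0.07 ± 0.17 on the log2 scale (SE, adjusted p = 0.878). PSMB6 gave 1800.2 with PonA, 2010.1 with ethanol and 1984 untreated at day 1, and 1882 with PonA against 2283 untreated at day 2, an effect of -0.21 ± 0.16 (SE, adjusted p = 0.571). PSMB7 has a pair of probe sets. The first gave 469 with PonA, 484 with ethanol and 481 untreated at day 1, and 516 with PonA against 638 untreated at day 2. The second gave 423 with PonA, 501 with ethanol and 479.9 untreated at day 1, and 522 with PonA against 569.8 untreated at day 2. Their log2 effects were -0.15 ± 0.17 (SE, adjusted p = 0.691) and -0.18 ± 0.16 (SE, adjusted p = 0.632). Whether an immunoproteasome gene and its counterpart differed in their effects was not tested.

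**Figure D2:**
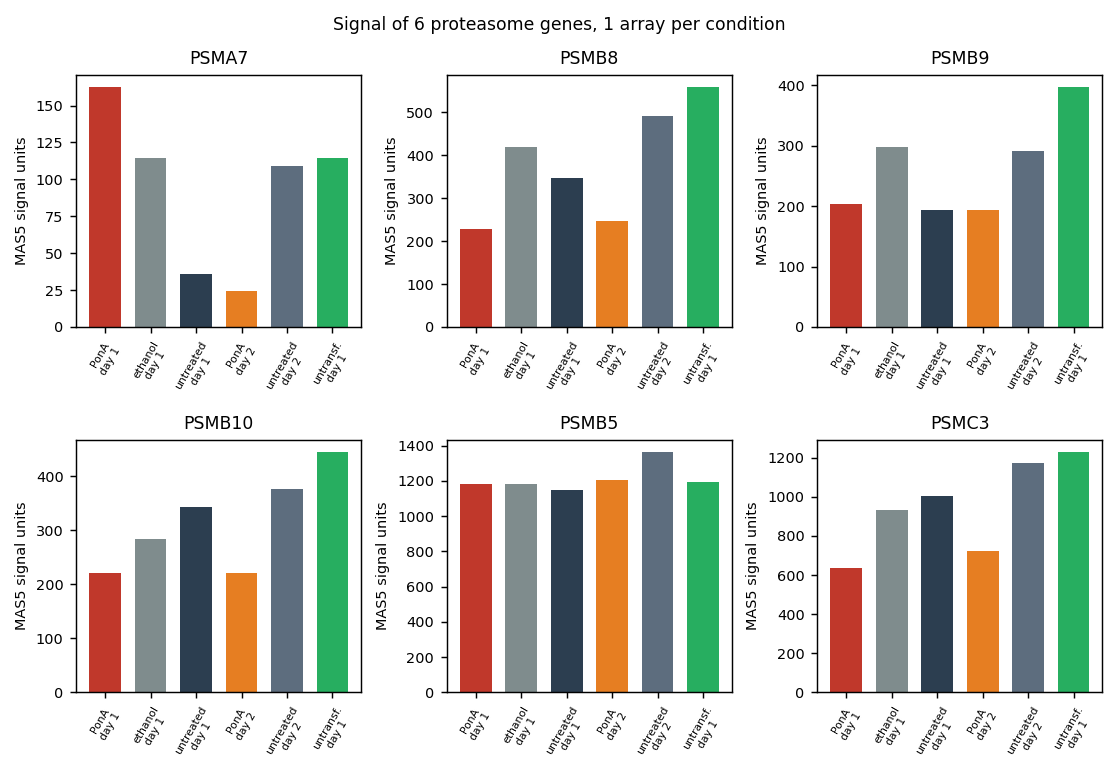
Bars give the MAS5 signal (linear scale from 0) of 6 proteasome genes on each of the 6 arrays, 1 array per condition, so no error bar can be drawn. PSMB8, PSMB10 and PSMC3 are lower on both PonA arrays than on the 3 other transfected arrays, PSMB9 is as low on the untreated array of day 1 as with PonA, PSMB5 lies between 1146 and 1364 on all arrays, and PSMA7 is low on the untreated array of day 1 and the PonA array of day 2.

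PSMC3, an ATPase of the regulatory cap, had the lowest effect outside the immunoproteasome. It gave 634 units with PonA, 934 with ethanol and 1003 untreated at day 1, and 724 with PonA against 1171 untreated at day 2, without overlap. The same held for 16.2% of all 7934 tested probe sets, with both PonA arrays below the 3 others. The log2 effect was -0.65 ± 0.17 (SE, adjusted p = 0.0854), with single differences of -0.56 over ethanol and -0.66 over untreated cells at day 1, and of -0.69 at day 2. The 4 other ATPase genes read, PSMC1, PSMC2, PSMC4 and PSMC6, had effects between -0.35 and -0.01.

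The highest effects were those of PSME4, PSMD6 and PSMA3, and none passed the threshold. PSME4, which encodes the nuclear activator PA200, gave 76.9 units with PonA, 51.1 with ethanol and 81.6 untreated at day 1, and 99.0 with PonA against 66.7 untreated at day 2, an effect of 0.39 ± 0.25 (log2, SE, adjusted p = 0.459). The PonA value of day 1 was below that of untreated cells, so the groups overlapped. PSMD6, a scaffold subunit of the cap, gave 392 with PonA, 371 with ethanol and 278 untreated at day 1, and 427 with PonA against 333 untreated at day 2. It was the only one of the 42 probe sets with both PonA arrays above the 3 others, where 16.7% of 7934 tested probe sets were, and its effect was 0.32 ± 0.19 (log2, SE, adjusted p = 0.442). PSMA3, of the gating ring, gave 466 with PonA, 348 with ethanol and 533 untreated at day 1, and 607 with PonA against 453 untreated at day 2, an effect of 0.25 ± 0.23 (log2, SE, adjusted p = 0.634).

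Over the whole set, limma with Benjamini-Hochberg adjustment called 0 of 42 probe sets, where it called 5.07% of the 7934 tested, 2.7% as higher and 2.37% as lower. At an unadjusted p under 0.05 it took 3 as lower, PSMB8, PSMC3 and PSMB10, and 0 as higher, against 9.02% and 10.5% of all. The effect was below 0 in 33 of 42 probe sets and above 0 in 9, with a median of -0.16 on the log2 scale, while 3904 of all 7934 were below 0 and their median was 0.01. The median SE of the 42 was 0.17, so single effects of this size lie within their error. Both PonA arrays were below the 3 other transfected arrays in 11 of 42 probe sets, of 9 genes, or 26.2%, against 16.2% of all tested.

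By class, all 9 constitutive PSMB probe sets had effects below 0, from -0.39 to -0.03 with a median of -0.21. The 8 PSMA probe sets ran from -0.28 to 0.25 with a median of -0.12, and 5 were below 0. The 14 PSMD probe sets ran from -0.35 to 0.32 with a median of -0.15, and 10 were below 0. They include PSMD5, PSMD9 and PSMD10, which encode chaperones of cap assembly. The 3 PSME probe sets ran from -0.21 to 0.39, and the lowest was PSME1, which encodes an interferon-inducible activator of the barrel. Without PSMA7 and the immunoproteasome genes the median over 38 probe sets was -0.14, with 29 below 0.

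**Figure D3:**
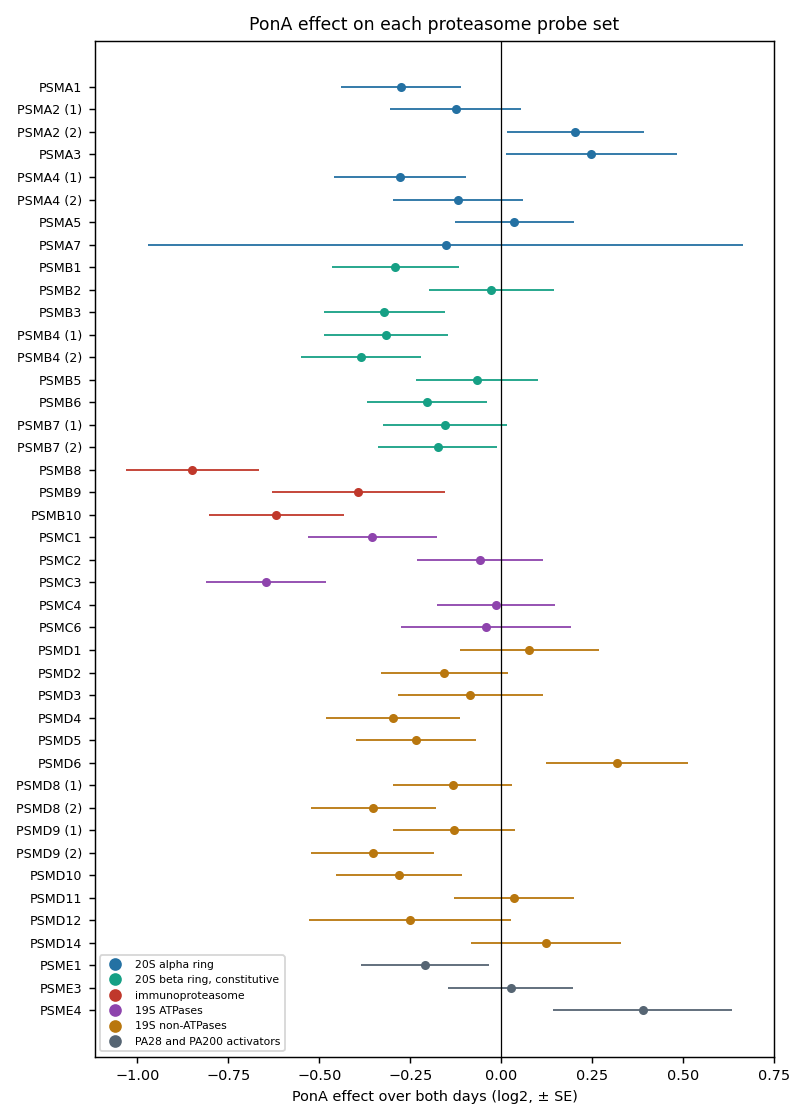
Points give the PonA effect over both days from the additive limma fit, on the log2 scale, for each of the 42 subunit probe sets, coloured by class, and lines give ± 1 SE. A number in brackets tells apart the probe sets of a gene. PSMB8 at -0.85, PSMC3 at -0.65 and PSMB10 at -0.62 lie lowest, no point passed the threshold, and PSMA7 has the widest error at 0.82.

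In the single comparisons with PonA on top, 21 of 42 subunit probe sets were lower in all 3 and 3 were higher in all 3, against 24.7% and 26.3% of 7505 probe sets. The first and second of these share the PonA array of day 1. The median difference of the 42 was -0.11 over ethanol and -0.19 over untreated cells at day 1, and -0.20 at day 2, on the log2 scale, where the medians of all probe sets were 0.03, 0.00 and -0.01. No subunit was 2-fold apart over ethanol at day 1, where 3.22% of all probe sets were higher and 2.4% lower. Against untreated cells of day 1 it was PSMA7 alone, which was higher, where 3.58% of all were 2-fold higher and 3.12% lower. At day 2 it was again PSMA7 alone, now lower, where 4.04% of all were lower and 4.67% higher. PSMB8 stood at a log2 difference of -0.99 in this last comparison, just inside the 2-fold limit. The PonA-by-day term of a limma fit with 1 residual degree of freedom called 0 of 42 and 0% of 7934 probe sets, with 330 of the 7934, PSMA7 alone among the 42, at an unadjusted p under 0.05.

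PSMA7, a subunit of the gating ring, varied most of all subunits, and its differences with PonA had opposite signs on the days. It gave 163 units with PonA, 114 with ethanol and 36.1 untreated at day 1, 24.6 with PonA and 109 untreated at day 2, and 115 in untransfected cells. The PonA arrays were thus its highest and its lowest, and the untreated arrays of both days were 3.01-fold apart. PonA was 1.43-fold higher than ethanol and 4.51-fold higher than untreated at day 1, and 4.42-fold lower than untreated at day 2, and the log2 effect over both days was -0.15 ± 0.82 (SE, adjusted p = 0.947). The lowest array, at 24.6 units, was close to its floor of 22.7. The gene has 1 probe set, so no second reading is at hand, and the 7 other PSMA probe sets spanned no more than 1.75-fold. A span as wide as that of PSMA7 was found in 1.12% of the 6449 probe sets above the floor on all arrays, and in 28 of the 3185 whose mean signal was within 2-fold of its own, or 0.879%.

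Ethanol alone left most subunits near their untreated level at day 1. Of 42 probe sets PSMA7 was 3.16-fold higher, where 1.04% of 8015 probe sets were 2-fold higher, and none was 2-fold lower, where 1.15% were. The median difference was -0.06 on the log2 scale, with 25 of 42 below 0. Over all probe sets the median was -0.01, with 4135 of 8015 below 0. After PSMA7, the highest was PSMB9 at 0.62, and the lowest was PSMD12, a scaffold subunit of the cap, at -0.87, with 257 units against 469 in untreated cells. Next lowest were PSME4 at -0.68, PSMC6 at -0.66 and PSMA3 at -0.62. PSMD12 was at 277 units with PonA at day 1, and its 469 on the untreated array was the highest of the 6. No replicate gives an error for these differences.

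Transfected untreated cells differed from untransfected cells at day 1 in few subunits. PSMA7 was 3.17-fold lower and PSMB9 2.05-fold lower in transfected cells, 2 of 42, where 2.64% of 8045 probe sets were 2-fold lower, and 0 of 42 were 2-fold higher, where 3.08% were. Log2 differences were -0.69 for PSMB8, with 347 units against 559.5 in untransfected cells, -1.04 for PSMB9, with 194 against 398, and -0.37 for PSMB10, with 344 against 445. PSMB7 was lower by both of its probe sets, at 481 and 479.9 units against 915 and 846 in untransfected cells, and no transfected array was above 638. PSME1 gave 368 units against 631 in untransfected cells, and PSMB5 and PSMB6 had differences of -0.06 and -0.18. All 5 transfected arrays were below the untransfected array in 13 of 42 probe sets, of 11 genes with the 3 immunoproteasome genes among them, or 31%, against 22.2% of 6449, and above it in 3, or 7.14%, against 22.8%. With 1 untransfected array, whose spike-in mean was also the lowest and whose GFAP signal the highest, the transfection and the array cannot be told apart.

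Between the days, most subunits were slightly higher at day 2 in cells without and with PonA. Untreated cells at day 2 were above those at day 1 in 31 of 42 probe sets, with a median of 0.20 on the log2 scale. Of all probe sets 3456 of 8003 were above, with a median of -0.06. All 9 constitutive PSMB probe sets were higher, by 0.20 to 0.44, and the widest difference apart from PSMA7, at 1.59, was 0.66 for PSMC1. PonA-treated cells at day 2 were above those at day 1 in 33 of 42, with a median of 0.13. Here 3438 of all 7941 were above, with a median of -0.07. After quantile normalization the medians of all probe sets were -0.005 in untreated and 0.002 in PonA-treated cells. Those of the subunits were then 0.175 and 0.128. PSMB8, PSMB9 and PSMB10 had differences of 0.50, 0.59 and 0.13 in untreated cells and of 0.12, -0.07 and 0.00 with PonA. PSMA7 was the only subunit 2-fold apart, higher at day 2 in untreated cells, where 1.04% of all were higher and 2.15% lower, and lower at day 2 in PonA-treated cells, where 2.05% of all were lower and 0.882% higher. The beta-actin ratio given above also differed between the days, and its part in these shifts was not tested.

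**Figure D4:**
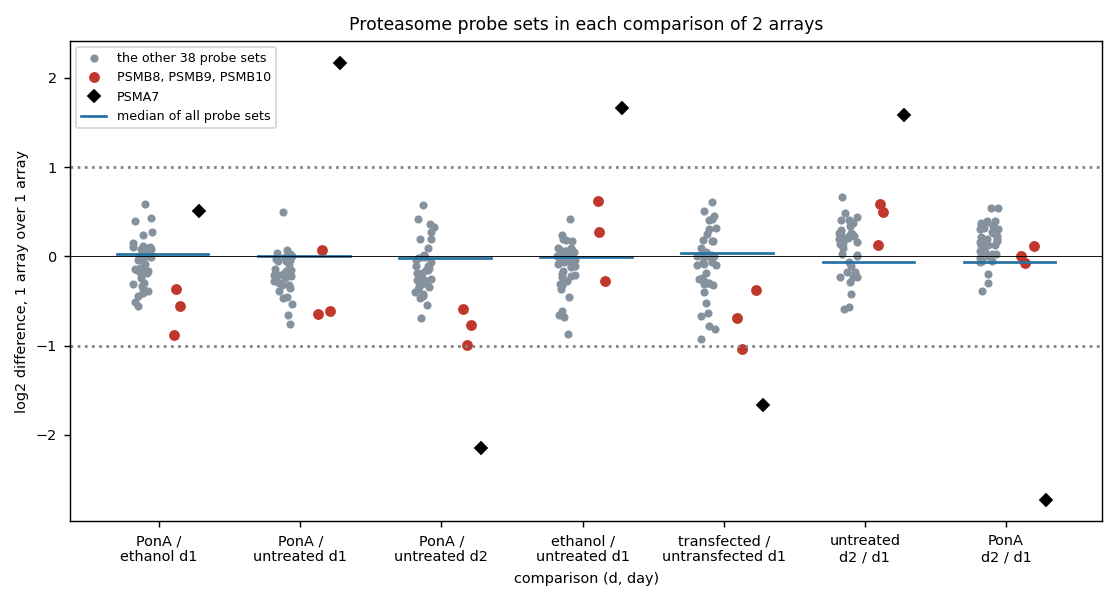
Points give the log2 difference between 2 arrays for each subunit probe set in 7 comparisons, grey for 38 probe sets, red for the 3 immunoproteasome genes and black diamonds for PSMA7. Blue lines are the median of all probe sets, dotted lines mark 2-fold, and points are spread sideways for sight. PSMA7 lies past 2-fold in 6 of the 7 comparisons with both signs, and the immunoproteasome points lie below 0 in 3 comparisons.

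Genes with a pair of probe sets show how far readings of the same difference between arrays lie apart. 6 genes, PSMA2, PSMA4, PSMB4, PSMB7, PSMD8 and PSMD9, had such pairs, which makes 42 pairs of differences over the 7 comparisons. The comparisons share arrays, so these pairs are not independent. The readings of a gene lay 0.17 apart in the median and 0.73 at most on the log2 scale, and had the same sign in 33 of 42. The widest gaps were those of PSMA2, whose second probe set, at 33.7 to 50.6 units, was near the floor, and without it the gap was 0.41 at most.

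Over 4 lists of other genes of the pathway, 2 genes passed the threshold, MAFF and IFNGR2, where 5.07% of all 7934 probe sets did. Among 8 tested genes of assembly factors and associated proteins 0 passed, with a median effect of 0.04, and the widest effects were 0.53 ± 0.24 (log2, SE) for the ubiquitin ligase gene UBE3A, -0.51 ± 0.22 for USP14, a deubiquitinase of the cap, and 0.31 ± 0.17 for the ligase gene UBE3C. The ubiquitin receptor gene ADRM1 had an effect of -0.16 ± 0.18 and the inhibitor gene PSMF1 one of 0.02 ± 0.17. Of 6 genes of ubiquitin, shuttles and the segregase 0 passed, and RAD23B at 0.40 ± 0.20, UBB at -0.32 ± 0.18 and VCP at -0.24 ± 0.21 were widest. Of 7 regulators of proteasome genes 1 rose, MAFF, which encodes a small partner of the factors NFE2L1 and NFE2L2, with an effect of 1.22 ± 0.18 (adjusted p = 0.0186). It gave 112 units with PonA, 56.2 with ethanol and 53.4 untreated at day 1, and 255 with PonA against 92.3 untreated at day 2. Untransfected cells gave 140 at day 1, more than transfected cells with PonA on that day. NFE2L1, which drives proteasome genes when the protease is blocked, had an effect of 0.31 ± 0.17 (adjusted p = 0.401).

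Among 14 tested genes of antigen processing and the interferon gamma response 1 rose and 0 fell, where 2.7% of all probe sets were called higher and 2.37% lower. In this list 9 effects were above 0, as were 4030 of all 7934, and the median was 0.20. The one that rose was IFNGR2, a chain of the interferon gamma receptor, at 1300.5 units with PonA, 691 with ethanol and 786 untreated at day 1, and at 1655 with PonA against 850.4 untreated at day 2, an effect of 0.88 ± 0.17 (log2, SE, adjusted p = 0.0399). TAP1, the peptide transporter gene that lies next to PSMB9, gave 135 with PonA, 234 with ethanol and 123 untreated at day 1, and 195 with PonA against 170.0 untreated at day 2. Like PSMB9, it was higher with ethanol than on the other transfected arrays of day 1, while at day 2 the signs of these neighbours differed. Its effect was -0.11 ± 0.31 (adjusted p = 0.895). The factor gene IRF1 had an effect of -0.03 ± 0.20 and B2M, the light chain of MHC class I, one of -0.05 ± 0.18. After IFNGR2 the widest effects of the list were 0.75 ± 0.23 for JAK2, 0.53 ± 0.17 for IFNGR1 and 0.52 ± 0.17 for IRF2. None of these passed the threshold (limma, adjusted p = 0.135, 0.150 and 0.157), and JAK2 was above the floor on only 3 arrays. Without the PonA array of day 1 the effects of MAFF and IFNGR2 were 1.47 and 0.96. Without either array of day 2 they were 1.04 and 0.82. These fits read PonA from 1 day alone, and neither call held in them.

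PSMC3IP gave 28.7 units with PonA, 28.8 with ethanol and 65.0 untreated at day 1, 28.7 with PonA and 65.1 untreated at day 2, and 55.2 in untransfected cells. It was 2.27-fold lower with PonA than untreated on both days and 2.26-fold lower with ethanol alone at day 1. The effect of -0.85 ± 0.36 (log2, SE) did not pass the threshold (adjusted p = 0.271), and the PonA and ethanol values were close to their floors of 22.7 to 26.5.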

How the data were processed

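Expression was measured by array in 6 samples, 1 per condition. The deposited values are MAS5 signals, linear probe set intensities, per the submitters' processing notes; its version and scaling setting are not given in the sources used here. The trimmed mean (2% off each end) was 150.07 to 150.08 on every array, so no further scaling was applied. Platform annotation gave 1 symbol to 10943 probe sets, several to 545 and none to 1070.

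The subunit genes and the lists of other genes were chosen with earlier results of these data known. A floor was set at the 40th percentile of each array, lower signals were raised to it, and log2 was taken. Probe sets that exceeded the floor on 2 or more of the 5 transfected arrays were tested for PonA with day as a covariate (limma 3.58.1 in R 4.3.3, lmFit and eBayes, Benjamini-Hochberg over 7934 probe sets, threshold 0.05). Differences between single arrays have no replicate check and no p, and cover probe sets that exceeded the floor on either array.

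Named were PSMA7, the catalytic subunits, every subunit past the threshold or 2-fold, the 3 widest effects each way, and of the other lists those past the threshold, else the 3 widest, beside PSMF1, ADRM1, NFE2L1, IRF1, TAP1 and B2M. For genes of those lists with several probe sets the brightest was used. POMP, also on those lists, is not analysed here. PSMB4, PSMC1, PSMC2, PSMC4, PSMC6, PSMD12, PSME1, PSME3, SYK, CD68, CD3E, HBB, PECAM1, JAK2, IFNGR1 and IRF2 were named after their values were seen. Tables and figures were made with Python 3.11.15, pandas 2.3.3 and matplotlib 3.10.9.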

Additional observations from a re-analysis of the deposited data

Results flagged for a closer look

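4 subunit probe sets differed in the direction of their PonA differences between the days, that is, both comparisons of day 1 had 1 sign and that of day 2 the other. The PonA-by-day term for PSMA7 was -3.49 on the log2 scale (limma, adjusted p = 0.917), with differences of 0.51 over ethanol and 2.17 over untreated cells at day 1 and -2.14 at day 2. It was -0.29 for PSMB2, 0.44 for PSMD1 and 0.49 for PSMD3, at an adjusted p of 1.00 each, so none of the 4 passed the threshold. The differences of PSMB2, PSMD1 and PSMD3 were between -0.42 and 0.33.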

How the results depend on the processing

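No paired analysis was possible because each condition has 1 array and so no replicate number to pair by. Day, which the PonA and untreated arrays share, was a covariate of the fit, and without it the calls among subunits were also 0 and adjusted p for PSMB8 was 0.0826. For PSMB8 the limma adjusted p was 0.166 with the floor at the 20th percentile, 0.0939 with no filter and 0.0573 after quantile normalization. The count of subunit probe sets called lower, 0 as reported, was 1 (PSMB8) with no floor and log2 of signal plus 16 (adjusted p = 0.0419) and with 1 probe set per gene (adjusted p = 0.0498), and ran from 0 to 1 when 1 array was left out. The subunits 2-fold lower with PonA than untreated at day 2 were 2 after quantile normalization, and those 2-fold lower in transfected than in untransfected cells were 1 after it and 1 without the floor. The PSMA7 effect ran from -2.14 to 1.34 when 1 array was left out: it was 0.014 without the ethanol array and 1.34 without either day 2 array. The PSMB5 effect ran from -0.18 to 0.021 in the same way, and was 0.021 without either day 2 array. Over all probe sets 402 calls became 107 with the floor at the 20th percentile, 29 with no filter and 111 to 725 when 1 array was left out. The causes were not tested. The call of MAFF was also lost with the 20th percentile floor (adjusted p = 0.0908), no filter (0.0651) and no day term (0.0855), that of IFNGR2 with the first (0.141) and second (0.0669) of these, and that of SLC1A3 with no filter (0.0600). The alternatives for PSMC3, PSMB5, PSMB6, PSMB7, PSME4, PSMD6, PSMA3, MAFF, IFNGR2 and SLC1A3, the medians, the PonA-by-day term and the count of subunits lower in all 3 PonA comparisons were chosen after seeing the data. With 1 array per condition and 2 residual degrees of freedom, the number of arrays limits every value.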
